A study of Mus musculus with 20 samples.

Results

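The first hour of stimulation with bacterial lipopolysaccharide (LPS) was compared with the first hour of interleukin 1 beta (IL-1b) in primary mouse embryonic fibroblasts (MEFs), cells grown out of C57BL/6 embryos. The libraries were chosen by their labels alone: LPS at 0.5 and 1 h in both genotypes, 4 libraries, and IL-1b at 0.5 and 1 h in both genotypes, 4 libraries, so 8 of the 20 libraries of the series. All cultures were c-Rel deficient (crel-/-), c-Rel being one of the NF-kB subunits. The control genotype carried that alteration alone, and the other, written crel-/-RelA-TA-KI and called the knock-in here, also carried a RelA-TA-KI allele at the gene of the NF-kB subunit RelA, an allele that the labels do not describe further. Cells were kept overnight in 0.5% serum and then given 100 ng/ml LPS or 10 ng/ml IL-1b. Each combination of genotype, agent and time is 1 library, and the labels do not say whether libraries came from separate cultures or embryos. The agent difference was therefore tested over 4 matched pairs of libraries (LPS and IL-1b of the same genotype and time). Its p-values measure the spread of this difference over the 4 pairs, which may be technical. That spread also holds any change of the difference with time or genotype. A gene with such a change can therefore miss the threshold. Unstimulated cells (0 h) and cells given 10 ng/ml tumour necrosis factor (TNF) are used below only as reference levels.

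LPS is recognised by Toll-like receptor 4 (TLR4) together with MD-2, encoded by Ly96, and the co-receptor CD14. IL-1b binds the IL-1 receptor, made of IL1R1 and IL1RAP. Both receptors recruit the adaptor MyD88 and through it activate NF-kB and the MAP kinases, whereas TLR4 in addition uses the adaptors TRAM and TRIF (Ticam2 and Ticam1) to activate the transcription factor IRF3, which switches on interferon beta (Ifnb1). Bulk RNA does not show which cells of a culture carry these receptors.

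The 8 libraries held 9248151 to 12143881 counts. Of 45706 counted genes, 13502 reached 1 CPM (counts per 1000000 counts of the scaled library total) in at least 2 of the 8 libraries and were tested. Rel, the gene of c-Rel, was still counted in every library, at 18.1 to 32.1 CPM under LPS and 17.5 to 35.9 CPM under IL-1b; a count over the whole gene does not check an allele whose altered part is not given, and Rela levels of 72.8 to 99 CPM under LPS and 87.1 to 185 CPM under IL-1b likewise do not check the knock-in. Markers fitting the label were abundant: 18 fibroblast and contractile markers summed to 65560 to 69160 CPM under LPS and 61940 to 74730 CPM under IL-1b. Macrophage markers were present too: 19 of 20 reached 1 CPM in all 8 libraries, Cd163 being at 0, and their sum was 3503 to 4810 CPM under LPS and 3466 to 4959 CPM under IL-1b, against 5562 and 6324 CPM at 0 h. Sums for the other cell types were lower and overlapped between the agents: 753.9 to 1149 CPM for cartilage and bone, 175.1 to 207.0 CPM for neural and Schwann cells, 60.2 to 77.8 CPM for blood vessel lining, and 6.61 to 17.9 CPM for epithelium and muscle. Gm42418, a gene model that is known to collect ribosomal RNA reads, was uneven: 15040 and 14900 CPM in the crel-/- IL-1b libraries but 37760 to 64460 CPM in the other 6, so that it moved with the agent in crel-/- cells; leaving it and 2 similar genes out gave 75 genes higher and 65 lower, in place of the 76 and 78 reported next.

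Over the 4 pairs LPS and IL-1b differed at a small set of genes. Under LPS 76 genes were higher (0.563% of the 13502 tested) and 78 were lower (0.578%), 1.14% in either direction, by edgeR's quasi-likelihood test at an adjusted p under 0.05, and the fitted difference reached 1 on the log2 scale in 28 of the higher genes (0.207% of those tested) and 13 of the lower genes (0.0963%). The higher genes included genes of cytokines, chemokines and myeloid receptors, among them Il1b, Tnf, Ifnb1, Ccl3, Clec4e and Cd14. The lower genes, that is those higher under IL-1b, included the transcription factors Egr4, Nr4a3 and Nr4a2 and genes such as Tnfaip6, Gprc5a and Arid5a. The direction was the same in 4 of 4 pairs for 74 of the 76 and for 77 of the 78. These genes were called over the same 4 pairs, which favours 1 direction, so these counts are no separate support. Without the knock-in 1 h pair the counts were 25 and 22, without the crel-/- 0.5 h pair 32 and 33, and without the knock-in 0.5 h pair 41 and 41.

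Relative to the same genotype's 0 h library, the 2 groups of genes, which were chosen on the agent difference itself, stood apart in level. Of the 76 genes higher under LPS, 28 lay at least 1 log2 unit above 0 h in the mean of the 4 LPS libraries and 0 in the mean of the 4 IL-1b libraries, with medians of 0.50 and -0.26. Of the 78 genes lower under LPS, 10 lay that far above 0 h under LPS and 29 under IL-1b, with medians of 0.31 and 0.78. In the first group 55 genes stood above 0 h under LPS and 24 under IL-1b. In the second group most genes stood above 0 h with either agent, 63 under LPS and 77 under IL-1b. A rise of at least 1 in the mean response to both agents passed the test in 328 genes (2.4% of 13642 tested). Of these 328, 12 were higher and 14 lower under LPS, against 76 and 78 of all 13502 genes (1.14% in either direction). Their median agent difference was -0.03, against 0.00 over all genes. A further 208 genes (1.52%) passed with a fall of at least 1. Of the 150 of these that entered the agent comparison, 0 were called in either direction. The 0 h libraries also stood apart in some marker sums. Muscle markers summed to 24.1 and 27.6 CPM at 0 h, against 9.82 to 17.9 CPM in the LPS and IL-1b libraries. With TNF at 0.5 and 1 h they summed to 24.3 to 26.4 CPM. Macrophage sums, given above, were likewise higher at 0 h. Cartilage and bone sums at 0 h, 970.8 and 1141 CPM, lay within the range of the LPS and IL-1b libraries. The part of such library differences in the distances from 0 h was not tested.

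Several cytokine genes were among the large differences in favour of LPS. With IL-1b, Il1b stood at 0.0991 and 0.322 CPM at 0.5 and 1 h in crel-/- cells and at 0.0892 and 0 CPM in knock-in cells. With LPS, Il1b stood at 30.2 and 126 CPM in crel-/- cells and 2.22 and 4.81 CPM in knock-in cells. Il1b (chr2:129364570-129371139 in mm10), the gene of the pro-form of the very cytokine used as the other agent, was therefore at or under 0.322 CPM in every IL-1b library, and the agents differed by 8.20 ± 0.25 log2 units (SE, adjusted p = 1.89e-06). Tnf was counted at 296 and 359.6 CPM after 0.5 and 1 h of LPS in crel-/- cells and at 36.9 and 66.1 CPM in knock-in cells. IL-1b gave Tnf levels of 6.04 and 2.25 CPM in crel-/- cells and 1.25 and 1.87 CPM in knock-in cells. The groups did not overlap for Tnf, the gene of tumour necrosis factor, and the difference was 6.00 ± 0.42 log2 units (SE, adjusted p = 0.0405); its call was lost when any 1 pair other than the crel-/- 1 h pair was left out. For Osm the LPS libraries held 4.62 and 4.19 CPM at 0.5 and 1 h in crel-/- cells and 7.23 and 7.81 CPM in knock-in cells. Under IL-1b, Osm was at 0.396 and 0.483 CPM in crel-/- cells and 0.357 and 0.444 CPM in knock-in cells. Oncostatin M (Osm), a cytokine of the IL-6 family, was one of the members with higher levels in the knock-in, and its difference was 3.77 ± 0.25 log2 units (SE, adjusted p = 0.000139). With IL-1b, Il10 stood at 0.0991 and 0 CPM at 0.5 and 1 h in crel-/- cells and at 0.268 and 0.178 CPM in knock-in cells. With LPS, Il10 stood at 1.99 and 1.27 CPM in crel-/- cells and 0.675 and 2.46 CPM in knock-in cells. The anti-inflammatory cytokine Il10 was low throughout but did not overlap between the agents, at 3.44 ± 0.56 log2 units (SE, adjusted p = 0.0286), and was not called without the crel-/- 0.5 h pair or without the knock-in 1 h pair. Il1a, the companion of Il1b, had 160 counts over the LPS libraries, nearly all in crel-/- cells (1.09 and 14.3 CPM), and 1 count over the IL-1b libraries, a ratio of 175 (95% counting interval 31.0 to 6971). Without the knock-in 1 h pair Il1a was not called, and neither DESeq2 nor limma-voom called it. In all, 4 of 21 tested cytokines and growth factors were higher under LPS (Il1b, Il1a, Tnf, Il10) and 1, Tnfsf15, was lower, with a median of -0.11 over the list.

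Chemokines divided. With IL-1b Ccl3 was at 10.7 and 9.10 CPM at 0.5 and 1 h in crel-/- cells and 9.27 and 7.47 CPM in knock-in cells. LPS libraries had Ccl3 at 101 and 164 CPM in crel-/- cells and 102 and 188 CPM in knock-in cells. Ccl3, which attracts monocytes and lymphocytes, stayed near its 0 h levels of 11.2 and 12.4 CPM under IL-1b, and differed by 3.89 ± 0.29 log2 units (SE, adjusted p = 0.0376); its call was lost when any 1 pair other than the knock-in 1 h pair was left out. The related chemokine Ccl4, singled out after its values were seen, was 75 and 154 CPM under LPS in crel-/- cells and 97.8 and 225 CPM in knock-in cells, against 4.99 to 6.84 CPM under IL-1b, and missed the threshold narrowly over the 4 pairs (difference 4.45 ± 0.37 log2 units, adjusted p = 0.0503). Ccl22 had 93 counts under LPS and 0 under IL-1b, at least 34.0-fold higher against a floor of 3 counts over the group, and 6.72 and 2.46 CPM of it came in the 1 h LPS libraries. DESeq2, limma-voom and the fit of all 20 libraries did not call Ccl22. Cxcl16 differed by 0.41 ± 0.07 log2 units (SE, adjusted p = 0.0466). Ccl3, Ccl22 and Cxcl16 were the list's only calls over the 4 pairs: 3 of 18 higher and 0 lower, beside a list median of -0.49. Fitted within crel-/- cells, 2 of the 18 were lower under LPS and 0 higher, against 0.311% and 0.259% of all genes. Within knock-in cells 0 were called. At 0.5 h alone 4 were higher and 0 lower, and at 1 h alone likewise 4 and 0, where 0.504% and 3.73% of all genes were higher.

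The neutrophil chemokines did not pass the test and pointed in opposite directions. With IL-1b Cxcl1 was at 593 and 356 CPM at 0.5 and 1 h in crel-/- cells and 48.6 and 33.1 CPM in knock-in cells. LPS libraries had Cxcl1 at 16 and 278 CPM in crel-/- cells and 3.38 and 11.8 CPM in knock-in cells. Cxcl1 was lower under LPS in 4 of 4 pairs, most of all at 0.5 h, with a difference of -2.49 ± 1.23 log2 units (SE, adjusted p = 0.492). Cxcl2 was counted at 173 and 288 CPM after 0.5 and 1 h of LPS in crel-/- cells and at 27.7 and 51.7 CPM in knock-in cells. IL-1b gave Cxcl2 levels of 91.2 and 54.1 CPM in crel-/- cells and 3.66 and 3.02 CPM in knock-in cells. Cxcl2 was higher under LPS in 4 of 4 pairs, with a difference of 2.20 ± 0.59 log2 units (SE, adjusted p = 0.291). The monocyte chemokine Ccl2 was likewise behind at 0.5 h of LPS in crel-/- cells, at 24.1 CPM against 292 CPM under IL-1b, and closer at 1 h, at 262 against 748 CPM; its difference was -1.31 ± 0.85 log2 units (SE, adjusted p = 0.587). Il6, at 0.386 to 1.85 CPM under LPS and 1.07 to 3.27 CPM under IL-1b, gave -1.35 ± 0.39 log2 units (SE, adjusted p = 0.170).

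Receptors and enzymes known from activated myeloid cells were the other leading genes. Acod1 was counted at 3.17 and 104 CPM after 0.5 and 1 h of LPS in crel-/- cells and at 0.289 and 3.74 CPM in knock-in cells. IL-1b gave Acod1 levels of 0 and 0.483 CPM in crel-/- cells and 0.178 and 0 CPM in knock-in cells. Acod1 makes the metabolite itaconate and was 1.45 CPM at 0 h in the knock-in, above its IL-1b libraries; the agents differed by 7.29 ± 0.52 log2 units (SE, adjusted p = 0.00359), a call that was lost without the knock-in 1 h pair. For Clec4e the LPS libraries held 21.2 and 73.5 CPM at 0.5 and 1 h in crel-/- cells and 1.06 and 1.93 CPM in knock-in cells. Under IL-1b, Clec4e was at 0.892 and 0.886 CPM in crel-/- cells and 0.0892 and 0.0889 CPM in knock-in cells. Clec4e, the receptor Mincle, differed by 5.60 ± 0.29 log2 units (SE, adjusted p = 9.01e-05). With IL-1b, Ccrl2 stood at 2.67 and 3.70 CPM at 0.5 and 1 h in crel-/- cells and at 0.892 and 1.42 CPM in knock-in cells. With LPS, Ccrl2 stood at 35.9 and 54.1 CPM in crel-/- cells and 7.33 and 13.8 CPM in knock-in cells. The chemerin-binding receptor Ccrl2 differed by 3.63 ± 0.14 log2 units (SE, adjusted p = 7.18e-06), and its groups did not overlap. With IL-1b Gpr84 was at 0.495 and 1.05 CPM at 0.5 and 1 h in crel-/- cells and 0.178 and 0.0889 CPM in knock-in cells. LPS libraries had Gpr84 at 6.88 and 20.6 CPM in crel-/- cells and 0.193 and 0.214 CPM in knock-in cells. Gpr84, a receptor for medium-chain fatty acids, differed by 3.86 ± 0.37 log2 units (SE, adjusted p = 0.00181), and here its knock-in libraries were near 0 h under both agents.

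Intracellular regulators were fewer. For Dusp2 the LPS libraries held 19.2 and 10.7 CPM at 0.5 and 1 h in crel-/- cells and 2.22 and 3.32 CPM in knock-in cells. Under IL-1b, Dusp2 was at 0.198 and 0.242 CPM in crel-/- cells and 0.178 and 0.178 CPM in knock-in cells. Dusp2, a phosphatase of MAP kinases, differed by 5.32 ± 0.32 log2 units (SE, adjusted p = 9.01e-05) and was the 1 member called among 20 tested feedback inhibitors of MAP kinases and growth factor receptors. Rgs1 was counted at 21.9 and 17.4 CPM after 0.5 and 1 h of LPS in crel-/- cells and at 59.1 and 30.4 CPM in knock-in cells. IL-1b gave Rgs1 levels of 3.07 and 2.82 CPM in crel-/- cells and 4.82 and 3.29 CPM in knock-in cells. Rgs1, which dampens G-protein signalling, differed by 3.14 ± 0.15 log2 units (SE, adjusted p = 5.9e-05). Traf1, an adaptor of the TNF receptor family, was the 1 called member of 24 tested NF-kB subunits, inhibitors and feedback genes, at 1.64 to 23.6 CPM under LPS and 0.357 to 3.38 CPM under IL-1b (overlapping) and a difference of 2.37 ± 0.25 log2 units (SE, adjusted p = 0.00262). The difference of each of the 12 leading genes in favour of LPS can be followed by library in the plot of their levels.

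**Figure D1:**
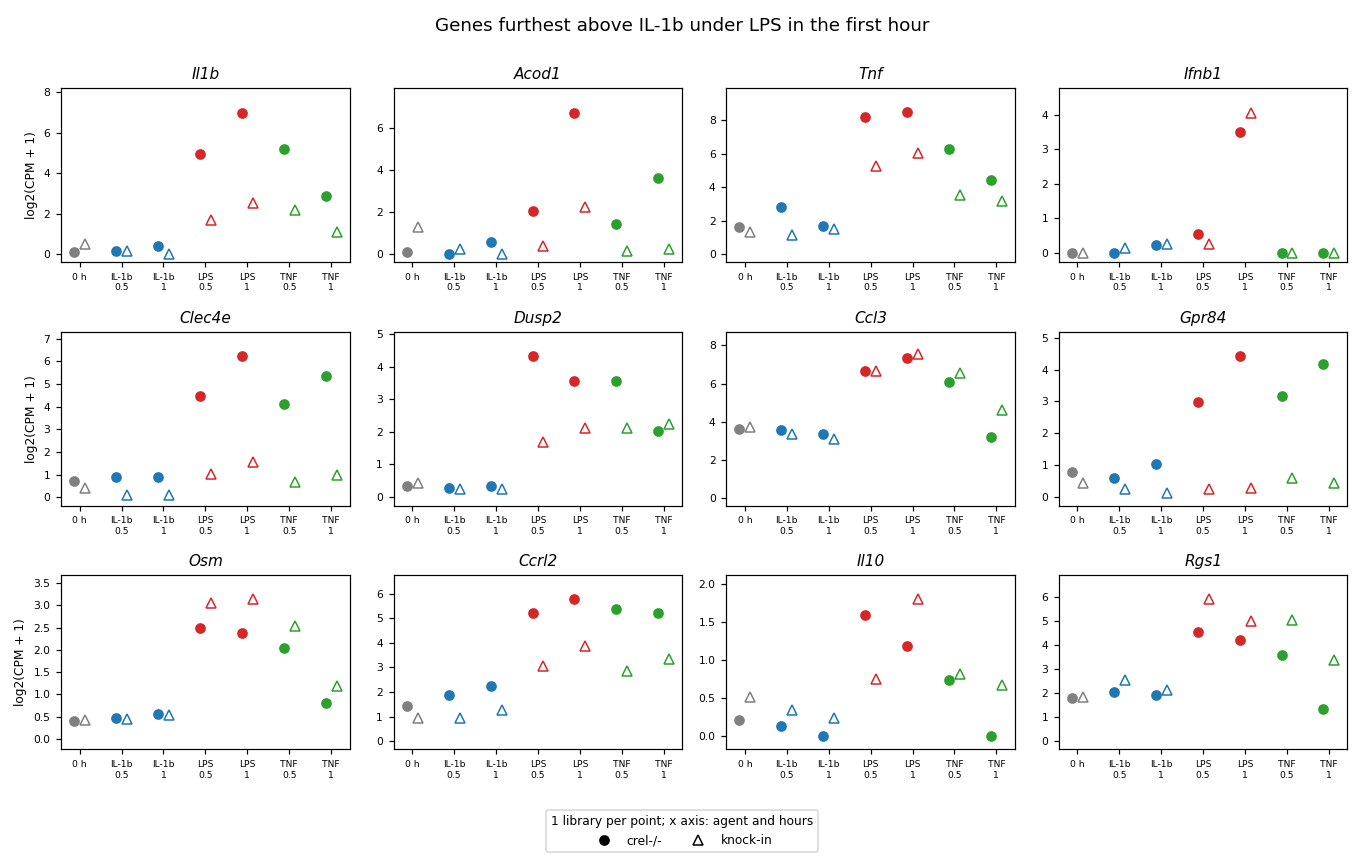
Levels of the 12 genes furthest above IL-1b under LPS, as log2(CPM + 1) on the vertical axis, by agent and hours on the horizontal axis; each point is 1 library, filled circles are crel-/- and open triangles knock-in. The LPS points (red) lie above the IL-1b points (blue) with no overlap in 10 of the 12 genes, Acod1 and Gpr84 overlapping across genotypes. Ifnb1 is counted among the 10, but its lowest LPS level, 0.193 CPM in the knock-in at 0.5 h, is 2 counts. Its highest IL-1b level, 0.178 CPM in the knock-in at 1 h, is also 2 counts. The lack of overlap for Ifnb1 thus rests on library scaling and is not resolved. The genes were chosen for a large difference with LPS higher in every pair, which favours this count. The share over all genes is not given.

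The levels of these 12 genes were also read under TNF. In 10 of the 12 leading genes the 0.5 h TNF library stood above both IL-1b libraries of its genotype in both genotypes; Il1b, for example, stood at 35.9 and 6.33 CPM after 0.5 and 1 h of TNF in crel-/- cells, and Ccrl2 at 40.8 and 36 CPM. The TNF level was above the LPS level in both genotypes for 2 of the 12 at 0.5 h and for 0 of the 12 at 1 h. The 12 were chosen for standing high under LPS and low under IL-1b, which favours both orders. The share over all genes is not given here, so these counts only describe the 12. Ifnb1 was at 0 in all 4 TNF libraries of the first hour. The comparison with TNF crosses a difference between libraries that the agents do not explain by label: macrophage marker sums were 5806 to 6573 CPM in the TNF libraries of 0.5 and 1 h, above every LPS and IL-1b library of these times, and the part of this in the TNF levels was not tested.

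CD14, the LPS co-receptor, was the 1 member called over the 4 pairs of 29 tested receptors, adaptors and kinases of the TLR4 and IL-1 receptor pathways. At 1 h alone, where 3.73% of all genes were higher and 4.75% lower under LPS, 5 were higher (Cd14, Il1rn, Ticam1, Irak2 and Peli1) and 2 lower (Il1r1 and Irf3). For Cd14 the LPS libraries held 109 and 169 CPM at 0.5 and 1 h in crel-/- cells and 74.2 and 130.4 CPM in knock-in cells. Under IL-1b, Cd14 was at 32.7 and 35.8 CPM in crel-/- cells and 27.4 and 37.2 CPM in knock-in cells. The groups did not overlap, and Cd14 differed by 1.82 ± 0.13 log2 units (SE, adjusted p = 0.0111); without the crel-/- 0.5 h pair or the knock-in 1 h pair it was not called. Tlr4 was at 30.8 to 44.9 CPM under LPS and 34.3 to 39.6 CPM under IL-1b with a difference of 0.14 ± 0.09 log2 units (SE, adjusted p = 0.492), Ly96 at 4.58 to 6.43 CPM under LPS and 4.36 to 5.26 CPM under IL-1b, and Il1rap at 26.4 to 34 CPM under LPS and 25.4 to 34.8 CPM under IL-1b. Il1r1, at 58.6 to 79.3 CPM under LPS and 59.9 to 104 CPM under IL-1b, was lower under LPS in 4 of 4 pairs without passing the test over them (-0.25 ± 0.06 log2 units, adjusted p = 0.134), and passed it at 1 h (-0.38 ± 0.06 log2 units, adjusted p = 0.00232). Cd14 is also counted among the macrophage markers, where it was again the 1 member called of 19 tested, while the sums of these markers overlapped between the agents. In bulk RNA, a change in the number of cells of a type and a change in RNA per cell cannot be told apart.

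Interferon beta, the gene on which the TRIF branch of TLR4 acts, separated the agents within the hour. With IL-1b, Ifnb1 stood at 0 and 0.161 CPM at 0.5 and 1 h in crel-/- cells and at 0.0892 and 0.178 CPM in knock-in cells. With LPS, Ifnb1 stood at 0.453 and 10.3 CPM in crel-/- cells and 0.193 and 15.8 CPM in knock-in cells. Only the LPS 1 h libraries thus exceeded 1 CPM, in both genotypes, and the difference over the 4 pairs was 5.80 ± 0.41 log2 units (SE, adjusted p = 0.000206); limma-voom gave an adjusted p of 0.0848. At 0.5 h alone the difference was 2.50 ± 1.13 log2 units (SE, adjusted p = 0.406) and at 1 h 6.16 ± 0.36 log2 units (SE, adjusted p = 1.15e-06), and the change between the times was not called (adjusted p = 0.485). The bases upstream of Ifnb1, a single-exon gene on the minus strand (chr4:88522025-88522774 in mm10), are shown because this promoter carries sites for both NF-kB and IRF factors close together. The stretch from 169 to 74 bases before the RefSeq gene start (GRCm38.p6, chr4:88522868-88522963, minus strand, 5′ to 3′ in the direction of the gene) has in capitals 3 matches to the IRF-type motif AANNGAAA and, after them, 2 matches to the NF-kB-type motif, GGGA and TCC parted by any 3 bases, one on each strand. The coordinates of the gene are those of the count table, whose model ends inside the RefSeq one; distances are from the RefSeq start, which was not checked here.
Ifnb1: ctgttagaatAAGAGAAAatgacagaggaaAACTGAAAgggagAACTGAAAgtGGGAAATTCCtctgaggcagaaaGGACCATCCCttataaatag

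Both motifs were searched on both strands of the 250 bases before the start, with overlaps allowed, and their letters were settled after promoter sequences had been read. The NF-kB-type motif was found in 3.86% and AANNGAAA in 21.3% of 32851 RefSeq promoter windows of this length. Of the 12 leading genes in favour of LPS, 9 had a promoter in the table; 2 of these, Ifnb1 and Ccrl2, held the NF-kB-type motif, and 5 held AANNGAAA.

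Other genes that respond to interferon or IRF3 were mostly not called. Of 40 tested members of that list 2 were higher under LPS, Ifnb1 itself and Slfn2, and 0 were lower. With IL-1b Slfn2 was at 56 and 95.8 CPM at 0.5 and 1 h in crel-/- cells and 33.4 and 60.3 CPM in knock-in cells. LPS libraries had Slfn2 at 105 and 158 CPM in crel-/- cells and 55.3 and 102 CPM in knock-in cells. Slfn2, a member of the Schlafen family, differed by 0.78 ± 0.05 log2 units (SE, adjusted p = 9.01e-05). Cxcl10 was counted at 37.3 and 202 CPM after 0.5 and 1 h of LPS in crel-/- cells and at 13.8 and 47.9 CPM in knock-in cells. IL-1b gave Cxcl10 levels of 105 and 245 CPM in crel-/- cells and 5.35 and 12.4 CPM in knock-in cells. Cxcl10, a chemokine induced by interferon and by NF-kB, was lower under LPS in both crel-/- pairs and higher in both knock-in pairs, with a difference over the 4 pairs of 0.08 ± 0.75 log2 units (SE, adjusted p = 0.979). Ifit1, an antiviral protein, was at 118 to 144 CPM under LPS and 81.1 to 223 CPM under IL-1b (-0.08 ± 0.27 log2 units, adjusted p = 0.931). Ifit2 gave a difference of 0.25, Isg15 -0.04, Ccl5 -0.51 and Irf1 -1.11, with adjusted p from 0.493 to 0.960. The list median was -0.11 and -0.70 at 0.5 and 1 h in the crel-/- pairs and 0.54 and -0.02 in the knock-in pairs, so its sign was not shared by the genotypes at 0.5 h.

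Among genes higher under IL-1b were immediate early transcription factors: 5 of 29 tested members of that list were lower under LPS (Jund, Nr4a3, Nr4a2, Egr4 and Maff) and 0 higher. With IL-1b Nr4a3 was at 43.7 and 73.8 CPM at 0.5 and 1 h in crel-/- cells and 46.2 and 85.2 CPM in knock-in cells. LPS libraries had Nr4a3 at 13 and 24.6 CPM in crel-/- cells and 12.3 and 17.9 CPM in knock-in cells. Nr4a3, an orphan nuclear receptor, started from 1.70 and 1.87 CPM at 0 h, so it stood above 0 h with both agents, and every IL-1b library was above every LPS library; the difference was -1.87 ± 0.11 log2 units (SE, adjusted p = 0.000206). With IL-1b, Nr4a2 stood at 46.3 and 49 CPM at 0.5 and 1 h in crel-/- cells and at 26.8 and 34.8 CPM in knock-in cells. With LPS, Nr4a2 stood at 14.9 and 22.3 CPM in crel-/- cells and 13.8 and 16.1 CPM in knock-in cells. The related Nr4a2 differed by -1.22 ± 0.11 log2 units (SE, adjusted p = 0.00129) without overlap. For Egr4 the LPS libraries held 2.17 and 1.27 CPM at 0.5 and 1 h in crel-/- cells and 1.35 and 1.07 CPM in knock-in cells. Under IL-1b, Egr4 was at 19.9 and 12.3 CPM in crel-/- cells and 4.64 and 3.73 CPM in knock-in cells. Egr4, a zinc-finger factor of the early growth response family, differed by -2.73 ± 0.26 log2 units (SE, adjusted p = 0.00271). Jund was counted at 124 and 168 CPM after 0.5 and 1 h of LPS in crel-/- cells and at 139.6 and 162 CPM in knock-in cells. IL-1b gave Jund levels of 233 and 277 CPM in crel-/- cells and 227 and 283 CPM in knock-in cells. Jund, a subunit of AP-1, was the member with the smallest p of the 5, at -0.79 ± 0.04 log2 units (SE, adjusted p = 6.05e-05). Maff, a small Maf factor, differed by -1.14 ± 0.15 log2 units (SE, adjusted p = 0.0437) and was not called when either knock-in pair was left out.

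The starts of Nr4a3 and Egr4 are shown because both hold repeated half-sites of the cAMP response element, the motif of CREB factors. The Nr4a3 stretch covers 241 to 132 bases before the RefSeq start (GRCm38.p6, chr4:48045064-48045173, plus strand) and has 3 matches to TGACGT in capitals. The Egr4 stretch covers 188 to 95 bases before the start (chr6:85513684-85513777, minus strand, in the direction of the gene) and has 2 matches on the opposite strand, written ACGTCA, and between them 1 match to AANNGAAA on the opposite strand.
Nr4a3: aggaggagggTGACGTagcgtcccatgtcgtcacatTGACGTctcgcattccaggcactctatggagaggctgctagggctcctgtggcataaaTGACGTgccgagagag
Egr4: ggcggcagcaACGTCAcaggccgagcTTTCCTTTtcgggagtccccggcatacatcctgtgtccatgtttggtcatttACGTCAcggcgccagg

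Searched on both strands in the same windows, TGACGT was present in 6.47% of the 32851 promoters. Of the 12 leading genes in favour of IL-1b, 10 had a promoter in the table, and 4 of them held the motif (Nr4a3, Egr4, Maff and Frat2), against 0 of the 9 in favour of LPS. Nr4a3 and Egr4 were shown because they hold this motif, so their matches are no test of it. The AP-1 motif TGANTCA was present in 6.75% of promoters, in 1 of these 10 and in 0 of the 9. The NF-kB-type motif was in 0 of the 10 and AANNGAAA in 3. A match is a description of the letters in the window.

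Other genes higher under IL-1b encode secreted, matrix and receptor proteins. With IL-1b, Tnfaip6 stood at 50.8 and 90.3 CPM at 0.5 and 1 h in crel-/- cells and at 32.1 and 50.8 CPM in knock-in cells. With LPS, Tnfaip6 stood at 21.1 and 34.7 CPM in crel-/- cells and 18.1 and 20 CPM in knock-in cells. Tnfaip6, which binds hyaluronan, differed by -1.22 ± 0.09 log2 units (SE, adjusted p = 0.00047), and the hyaluronan synthase Has2 by -0.82 ± 0.09 log2 units (SE, adjusted p = 0.00284). Gprc5a was counted at 19.4 and 37.8 CPM after 0.5 and 1 h of LPS in crel-/- cells and at 22.1 and 28.1 CPM in knock-in cells. IL-1b gave Gprc5a levels of 53.6 and 72.6 CPM in crel-/- cells and 47.4 and 71.8 CPM in knock-in cells. Gprc5a, an orphan receptor, differed by -1.21 ± 0.09 log2 units (SE, adjusted p = 0.000398) without overlap. For Tnfsf15 the LPS libraries held 2.17 and 5.45 CPM at 0.5 and 1 h in crel-/- cells and 1.16 and 2.57 CPM in knock-in cells. Under IL-1b, Tnfsf15 was at 5.35 and 23.1 CPM in crel-/- cells and 2.50 and 4.09 CPM in knock-in cells. Tnfsf15, a ligand of the TNF family, differed by -1.49 ± 0.24 log2 units (SE, adjusted p = 0.0286) and was not called when any 1 pair other than the knock-in 1 h pair was left out. F2rl1, the protease-activated receptor PAR2, was at 1.99 to 3.47 CPM under LPS and 3.47 to 9.18 CPM under IL-1b and differed by -1.07 ± 0.20 log2 units (SE, adjusted p = 0.0487). Of 19 tested adhesion, prostaglandin and matrix remodelling genes, 3 were lower under LPS (Tnfaip6, Has2 and the metalloprotease inhibitor Timp1, -0.38 ± 0.04 log2 units, adjusted p = 0.00181) and 0 higher.

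Several regulators of transcription and RNA were in the same group. With IL-1b Arid5a was at 26.4 and 59.1 CPM at 0.5 and 1 h in crel-/- cells and 26.8 and 41.8 CPM in knock-in cells. LPS libraries had Arid5a at 8.70 and 24.5 CPM in crel-/- cells and 14.3 and 21.7 CPM in knock-in cells. Arid5a, which stabilises inflammatory mRNAs such as that of Il6, differed by -1.16 ± 0.11 log2 units (SE, adjusted p = 0.00260). With Nfil3 (-0.80 ± 0.08 log2 units, adjusted p = 0.00147), the clock gene Per1 (-0.45 ± 0.06 log2 units, adjusted p = 0.0132) and Arid5b (-0.31 ± 0.04 log2 units, adjusted p = 0.0153), it made up the 4 members lower under LPS among 23 tested short-lived regulators of transcription; Etv3 was the 1 higher (0.41 ± 0.05 log2 units, adjusted p = 0.00645). Cebpb, at 30.4 to 64.2 CPM under LPS and 45.1 to 121 CPM under IL-1b, differed by -0.72 ± 0.07 log2 units (SE, adjusted p = 0.00129) and Cebpd by -0.64 ± 0.09 log2 units (SE, adjusted p = 0.0151). These transcription factors of acute phase genes, with the metallothionein Mt1 (-0.40 ± 0.06 log2 units, adjusted p = 0.0286), were the 3 members lower among 15 acute phase and innate effector genes, of which 3, Acod1, Clec4e and Gpr84, were higher.

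The remaining leading genes in favour of IL-1b were close in size. Filip1l, at 65 to 97.5 CPM under LPS and 146 to 222 CPM under IL-1b, differed by -1.06 ± 0.11 log2 units (SE, adjusted p = 0.0262) without overlap. The magnesium transporter gene Nipal1, at 3.17 to 11.6 CPM under LPS and 7.43 to 24.7 CPM under IL-1b, differed by -1.02 ± 0.11 log2 units (SE, adjusted p = 0.00252). Frat2, a regulator of Wnt signalling, was at 1.17 to 2.03 CPM under LPS and 2.66 to 3.73 CPM under IL-1b, differed by -1.08 ± 0.20 log2 units (SE, adjusted p = 0.0487), and was not called when any 1 pair was left out. The p53 target Pmaip1 was the 1 called of 18 tested p53 targets (-0.36 ± 0.06 log2 units, adjusted p = 0.0379). Among the other named genes, the calls that did not hold when 1 pair was left out were Arid5b, Cebpd, Cxcl16, F2rl1, Filip1l, Mt1, Pdgfra, Per1 and Pmaip1, lost without the crel-/- 0.5 h pair. Without the crel-/- 1 h pair F2rl1, Filip1l and Pdgfra were lost. Without the knock-in 0.5 h pair Arid5b, Cebpd, Cxcl16, Mt1, Pdgfra and Pmaip1 were lost, and without the knock-in 1 h pair Arid5b, Cxcl16, Etv3, F2rl1, Filip1l, Has2, Mt1, Pdgfra, Per1 and Pmaip1. In the fit of all 20 libraries Acod1, Arid5a, Arid5b, Ccl22, Cebpb, Cebpd, Cxcl16, Egr4, Etv3, Frat2, Has2, Maff, Mt1, Nfil3, Nipal1, Pdgfra, Per1, Pmaip1, Slfn2, Timp1 and Tnfsf15 were not called. DESeq2 did not call Ccl22, F2rl1, Frat2, Il1a, Pdgfra and Pmaip1, limma-voom did not call Acod1, Ccl22, Cxcl16, F2rl1, Frat2, Gpr84, Ifnb1, Il1a and Maff, additive blocks did not call Cebpd and Pmaip1, and without a count filter Ccl3, Cd14, Filip1l and Maff were not called.

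**Figure D2:**
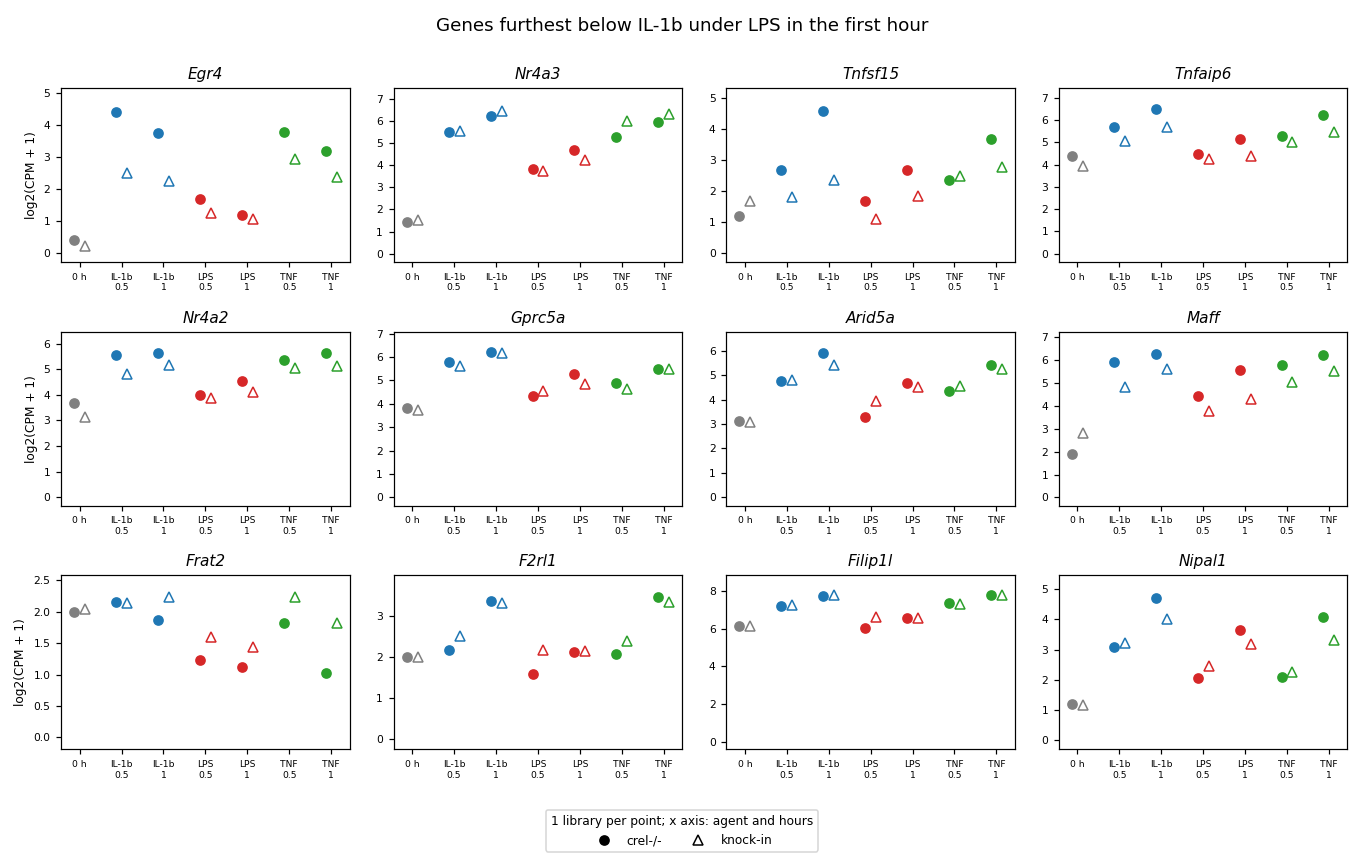
Levels of the 12 genes furthest below IL-1b under LPS, as log2(CPM + 1) on the vertical axis, by agent and hours on the horizontal axis; each point is 1 library, filled circles are crel-/- and open triangles knock-in. The IL-1b points (blue) and LPS points (red) do not overlap in 7 of the 12 genes. The TNF points (green) lie above LPS at 0.5 h in both genotypes in 11 of the 12. The genes were chosen for low LPS against IL-1b in every pair, which favours both counts, and shares over all genes are not given.

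TNF levels were set beside these genes too. The TNF library exceeded the LPS library in both genotypes in 11 of the 12 leading genes at 0.5 h. At 1 h it did so in 11 of the 12 as well. The 12 were chosen for standing low under LPS against IL-1b, which favours this order, and the share over all genes is not given. Nr4a3 stood at 38 and 60.2 CPM after 0.5 and 1 h of TNF in crel-/- cells, close to its IL-1b levels. Over all 78 genes lower under LPS, 23 lay at least 1 log2 unit above 0 h at 0.5 h of IL-1b, 5 at 0.5 h of LPS and 17 at 0.5 h of TNF, against 2.6%, 2.46% and 1.21% of all genes. At 1 h these counts were 35, 15 and 33, against 3.58%, 3.55% and 2.05% of all genes. At 3 h they were 20, 38 and 30, against 4.13%, 11.8% and 4.16% of all genes, so the higher count with LPS came with a higher share over all genes. These counts share the 0 h libraries, and the 78 genes were chosen on the agent difference itself. The TNF libraries also differed in macrophage marker sums, as given above.

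The genes most often used as readouts of NF-kB did not pass the test between the agents over the 4 pairs. Nfkbia, the inhibitor IkBa, was at 819.9 and 499.5 CPM under IL-1b and 288 and 707 CPM under LPS at 0.5 and 1 h in crel-/- cells, and at 48.5 and 70.2 and 35.4 and 62.5 CPM in knock-in cells, with a difference of -0.41 ± 0.43 log2 units (SE, adjusted p = 0.742). Tnfaip3, the deubiquitinase A20, was 670.0 against 218 CPM at 0.5 h in crel-/- cells and 282 against 521 CPM at 1 h, so that the order of the agents turned; its difference was -0.15 ± 0.62 log2 units (SE, adjusted p = 0.947). Nfkbiz gave -0.29 ± 0.29 log2 units (SE, adjusted p = 0.732). Of the 24 tested NF-kB subunits, inhibitors and feedback genes, a fit within crel-/- cells called 1 higher and 3 lower under LPS. Over all genes these shares were 0.259% and 0.311%. Within knock-in cells 0 of the 24 were called. At 1 h alone 4 were higher and 2 lower, against 3.73% and 4.75% of all genes. Of 13 tested mRNA decay and SOCS feedback genes 0 were called over the 4 pairs. No member of the lists for proliferation (20 tested), BMP, TGF-beta, Notch and Wnt feedback (19), cartilage and bone (6), neural and Schwann cells (10), muscle (2), epithelium (2) or endothelium (5) was called over the 4 pairs, and of 18 fibroblast markers only Pdgfra was, at 0.22 ± 0.04 log2 units (SE, adjusted p = 0.0412).

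**Figure D3:**
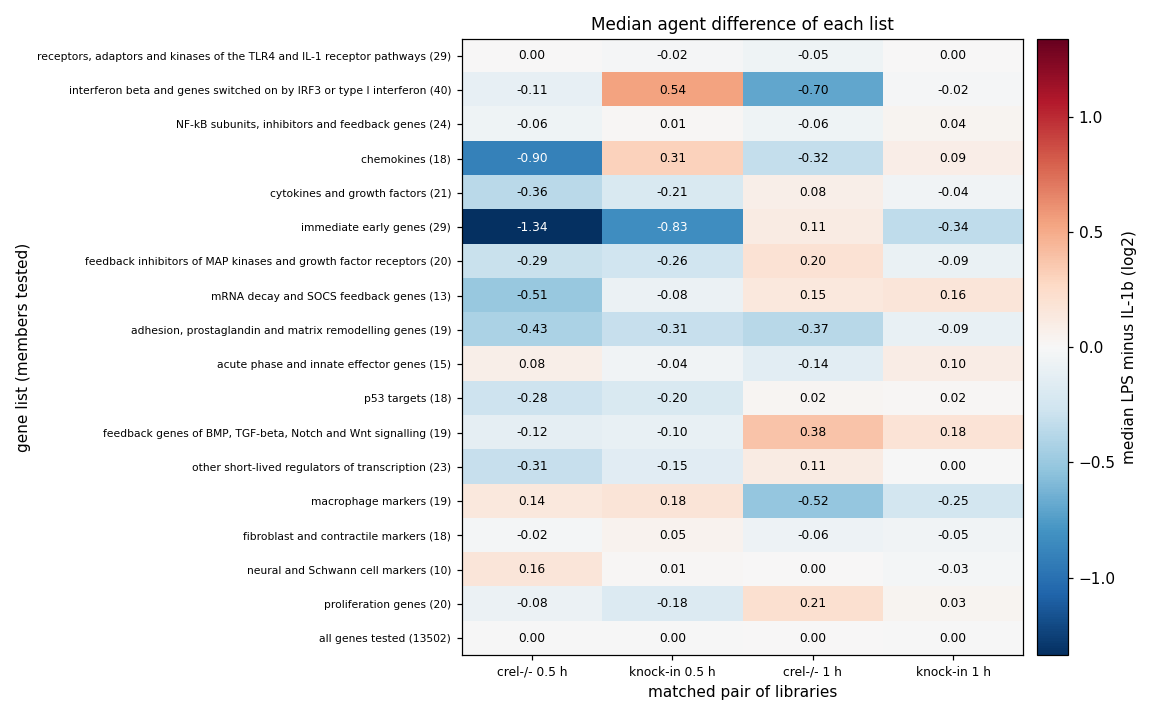
Median LPS minus IL-1b difference (log2, colour and number) of each gene list with at least 10 tested members (rows, number tested in parentheses) in each matched pair of libraries (columns). Immediate early genes have medians of -1.34 and -0.83 at 0.5 h and 0.11 and -0.34 at 1 h, macrophage markers lie above 0 at 0.5 h and below 0 at 1 h, and all genes lie at 0.00.

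The agent difference was then fitted at each time. At 0.5 h, 68 genes were higher under LPS (0.504%) and 73 lower (0.541%), together 1.04%. At 1 h, 503 were higher (3.73%) and 642 lower (4.75%), together 8.48%. The difference itself changed between the times, by a test of the agent by time term, in 111 genes that moved towards LPS (0.822%) and 244 that moved towards IL-1b (1.81%). With DESeq2 these were 37 and 32, and in a fit of all 20 libraries 1 and 5. Over the 154 genes called for the agent, 2 had a called change with time, against 2.63% of all genes tested. The test over the 4 pairs counts such a change as spread, which disfavours these genes. This count is therefore no result about the 154.

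A first group moved towards LPS between 0.5 and 1 h. Mdm2 was counted at 108 and 174 CPM after 0.5 and 1 h of LPS in crel-/- cells and at 139 and 212 CPM in knock-in cells. IL-1b gave Mdm2 levels of 117 and 104 CPM in crel-/- cells and 159.8 and 126 CPM in knock-in cells. Mdm2, the ubiquitin ligase of p53, thus changed its order, and its difference moved by 0.90 ± 0.07 log2 units (SE, adjusted p = 0.000235). For Plk2 the LPS libraries held 196 and 243 CPM at 0.5 and 1 h in crel-/- cells and 240.4 and 218 CPM in knock-in cells. Under IL-1b, Plk2 was at 333 and 249 CPM in crel-/- cells and 345 and 199.8 CPM in knock-in cells. Plk2, a kinase gene induced by p53, moved by 0.69 ± 0.09 log2 units (SE, adjusted p = 0.00476). Gdf15, a stress cytokine, was 3.17 and 0.805 CPM at 0.5 and 1 h of IL-1b in crel-/- cells and 4.26 and 5.06 CPM under LPS; the knock-in had 3.03 and 0.444 CPM under IL-1b and 2.60 and 3.21 CPM under LPS. In all 6 of 18 p53 targets moved towards LPS and 1 towards IL-1b, and at 1 h 5 were higher and 2 lower under LPS. Of 19 feedback genes of BMP, TGF-beta, Notch and Wnt signalling 4 moved towards LPS (Smad6, Id3, Grem1 and Bmp4) and 1, Lfng, towards IL-1b; Smad6, an inhibitor of BMP signalling, moved by 1.09 ± 0.15 log2 units (SE, adjusted p = 0.00284).

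Il1rn, which encodes the IL-1 receptor antagonist, belonged to this group as well. With IL-1b Il1rn was at 106 and 96.5 CPM at 0.5 and 1 h in crel-/- cells and 91.6 and 88.5 CPM in knock-in cells. LPS libraries had Il1rn at 107 and 141 CPM in crel-/- cells and 87.9 and 130.3 CPM in knock-in cells. At 0.5 h its difference was -0.02 ± 0.05 log2 units (SE, adjusted p = 0.928) and at 1 h 0.55 ± 0.05 log2 units (SE, adjusted p = 5.46e-05), a change of 0.57 ± 0.07 log2 units (SE, adjusted p = 0.00202). With IL-1b, Myc stood at 72.7 and 76.3 CPM at 0.5 and 1 h in crel-/- cells and at 85.4 and 82.8 CPM in knock-in cells. With LPS, Myc stood at 27.8 and 55.8 CPM in crel-/- cells and 38.3 and 55.7 CPM in knock-in cells. Myc was lower under LPS in 4 of 4 pairs, with differences of -1.27 ± 0.08 log2 units (SE, adjusted p = 2.05e-06) at 0.5 h and -0.51 ± 0.07 log2 units (SE, adjusted p = 0.00092) at 1 h, a change of 0.75 ± 0.10 log2 units (SE, adjusted p = 0.00247).

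Several immediate early and feedback genes had a pronounced time pattern without passing this test. Dusp1, a MAP kinase phosphatase, was 175 and 18.1 CPM after 0.5 and 1 h of IL-1b in crel-/- cells and 139.9 and 28.3 CPM in knock-in cells, but 154 and 167 CPM and 227 and 233 CPM under LPS. At 0.5 h neither agent was the higher in both genotypes, and at 1 h LPS was far above IL-1b in both genotypes, with a difference at 1 h of 3.12 ± 0.36 log2 units (SE, adjusted p = 0.0811). With IL-1b Fos was at 271 and 12.2 CPM at 0.5 and 1 h in crel-/- cells and 258 and 12.7 CPM in knock-in cells. LPS libraries had Fos at 253 and 109.6 CPM in crel-/- cells and 323 and 69.2 CPM in knock-in cells. The AP-1 subunit Fos had a difference at 1 h of 2.83 ± 0.29 log2 units (SE, adjusted p = 0.0601). Zfp36, the mRNA decay factor tristetraprolin, went from 916 to 74.7 CPM under IL-1b and from 545 to 814 CPM under LPS in crel-/- cells, and from 224 to 37.1 and from 459 to 286 CPM in knock-in cells. The adjusted p of the change with time was 0.216 for Dusp1, 0.155 for Fos and 0.398 for Zfp36. Under TNF Dusp1 was 105 and 20.2 CPM at 0.5 and 1 h in crel-/- cells and 162 and 63.1 CPM in knock-in cells.

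Egr1 and Nr4a1 differed from these. Egr1, a zinc-finger factor, was 1242 and 84.7 CPM under IL-1b and 659.7 and 544 CPM under LPS in crel-/- cells, and 1007 and 98.2 and 716 and 189 CPM in knock-in cells: lower under LPS at 0.5 h and higher at 1 h in both genotypes, with no call (adjusted p of the change = 0.426). For Nr4a1 the LPS libraries held 190.3 and 184 CPM at 0.5 and 1 h in crel-/- cells and 194 and 132 CPM in knock-in cells. Under IL-1b, Nr4a1 was at 632 and 256 CPM in crel-/- cells and 517 and 300.1 CPM in knock-in cells. Nr4a1, the third member of its family, was lower under LPS in 4 of 4 pairs like Nr4a2 and Nr4a3 but did not pass the test (-1.21 ± 0.26 log2 units, adjusted p = 0.223).

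The larger group moved towards IL-1b, and macrophage markers were in it. Of 19 tested markers, 10 moved towards IL-1b and 0 towards LPS; at 0.5 h 2 were higher under LPS and 0 lower, and at 1 h 1, Cd14, was higher and 11 were lower. With IL-1b, Csf1r stood at 322 and 403 CPM at 0.5 and 1 h in crel-/- cells and at 279 and 362 CPM in knock-in cells. With LPS, Csf1r stood at 381 and 272 CPM in crel-/- cells and 329.5 and 283 CPM in knock-in cells. Csf1r, the receptor for the macrophage growth factor CSF1, was therefore higher at 1 h than at 0.5 h in the IL-1b libraries and lower at 1 h in the LPS libraries of both genotypes, and the difference moved by -0.71 ± 0.07 log2 units (SE, adjusted p = 0.00102). C1qa was counted at 215 and 160.5 CPM after 0.5 and 1 h of LPS in crel-/- cells and at 199.8 and 157 CPM in knock-in cells. IL-1b gave C1qa levels of 198 and 230.2 CPM in crel-/- cells and 181 and 217 CPM in knock-in cells. The complement gene C1qa moved by -0.62 ± 0.06 log2 units (SE, adjusted p = 0.00103) and Lyz2, lysozyme, by -0.59 ± 0.07 log2 units (SE, adjusted p = 0.00509). Ptprc, the pan-leukocyte gene of CD45, gave -0.26 ± 0.13 log2 units (SE, adjusted p = 0.430). The list medians were 0.13 at 0.5 h and -0.42 at 1 h. No replicate library exists at either time, so a difference between agents at a time and a difference between single libraries cannot be told apart for a set of genes that share a cell type.

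**Figure D4:**
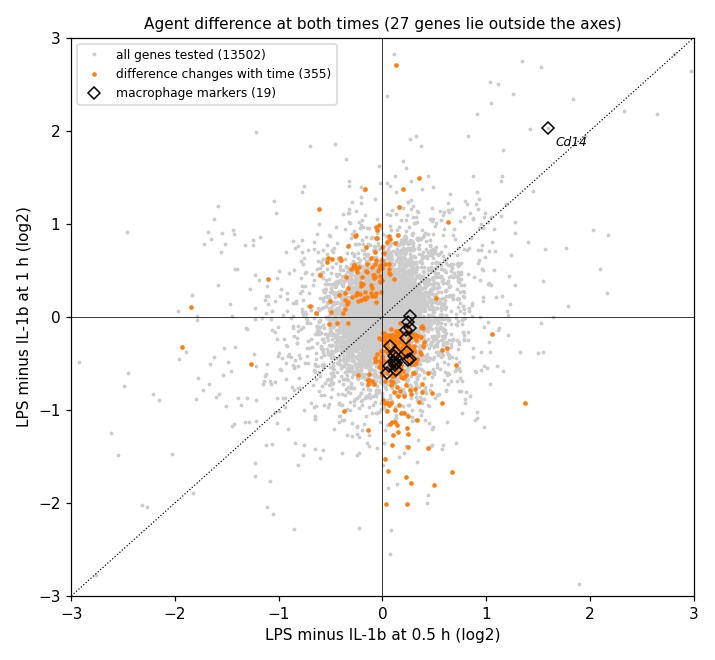
LPS minus IL-1b difference at 0.5 h (horizontal axis, log2) against that at 1 h (vertical axis, log2), both fitted over the 2 genotypes, for 13502 genes (27 lie outside the axes). Genes whose difference changed with time are orange, 111 above and 244 below the dotted line of equal differences, and diamonds are the 19 macrophage markers, which lie near 0.13 at 0.5 h and -0.42 at 1 h in the median with Cd14 apart.

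Finally the agent difference was compared between the genotypes. Fitted within crel-/- cells, 35 genes were higher (0.259%) and 42 lower (0.311%) under LPS; within knock-in cells 21 were higher (0.156%) and 5 lower (0.037%). The test of the difference between the genotypes called 3 genes that were relatively higher under LPS in the knock-in (0.0222%) and 0 in the other direction (edgeR; 182 and 121 genes at an unadjusted p under 0.05, and 5 and 2 calls by DESeq2). With IL-1b Csf1 was at 471 and 1437 CPM at 0.5 and 1 h in crel-/- cells and 135 and 151 CPM in knock-in cells. LPS libraries had Csf1 at 143 and 419.9 CPM in crel-/- cells and 126 and 147 CPM in knock-in cells. Csf1, the macrophage growth factor, was thus higher under IL-1b in crel-/- cells and close in value in knock-in cells. The agent difference was -1.75 ± 0.05 in crel-/- cells and -0.07 ± 0.05 in knock-in cells (SE, adjusted p of the genotype difference = 0.00114). Icam1 was counted at 64.5 and 171 CPM after 0.5 and 1 h of LPS in crel-/- cells and at 26.9 and 30.7 CPM in knock-in cells. IL-1b gave Icam1 levels of 176 and 479 CPM in crel-/- cells and 32.5 and 32.8 CPM in knock-in cells. The adhesion molecule Icam1 gave -1.47 ± 0.06 in crel-/- cells and -0.18 ± 0.07 in knock-in cells (adjusted p = 0.0129). For Rsad2 the LPS libraries held 22.1 and 27.7 CPM at 0.5 and 1 h in crel-/- cells and 27.4 and 61.2 CPM in knock-in cells. Under IL-1b, Rsad2 was at 26.6 and 36.7 CPM in crel-/- cells and 7.76 and 19.1 CPM in knock-in cells. For Rsad2, the antiviral gene viperin, the difference was -0.34 ± 0.10 in crel-/- cells and 1.74 ± 0.11 in knock-in cells (adjusted p = 0.0127), and its 0 h levels were 11.1 and 18.8 CPM.

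For the leading genes in favour of LPS the rule that chose them fixed the order of agents in both genotypes, so only their levels are described. Il1b at 1 h of LPS was 126 CPM in crel-/- cells and 4.81 CPM in knock-in cells, Clec4e 73.5 and 1.93 CPM and Tnf 359.6 and 66.1 CPM. Ccl3 was 164 and 188 CPM, Rgs1 17.4 and 30.4 CPM and Ifnb1 10.3 and 15.8 CPM. Macrophage marker sums at 1 h of LPS were 3503 CPM in crel-/- and 3590 CPM in knock-in cells. For none of these 6 genes did the genotype difference of the agent difference pass the test (adjusted p = 0.99984 for Il1b and 0.99984 for Tnf), which with 2 residual degrees of freedom does not show that they act alike.

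**Figure D5:**
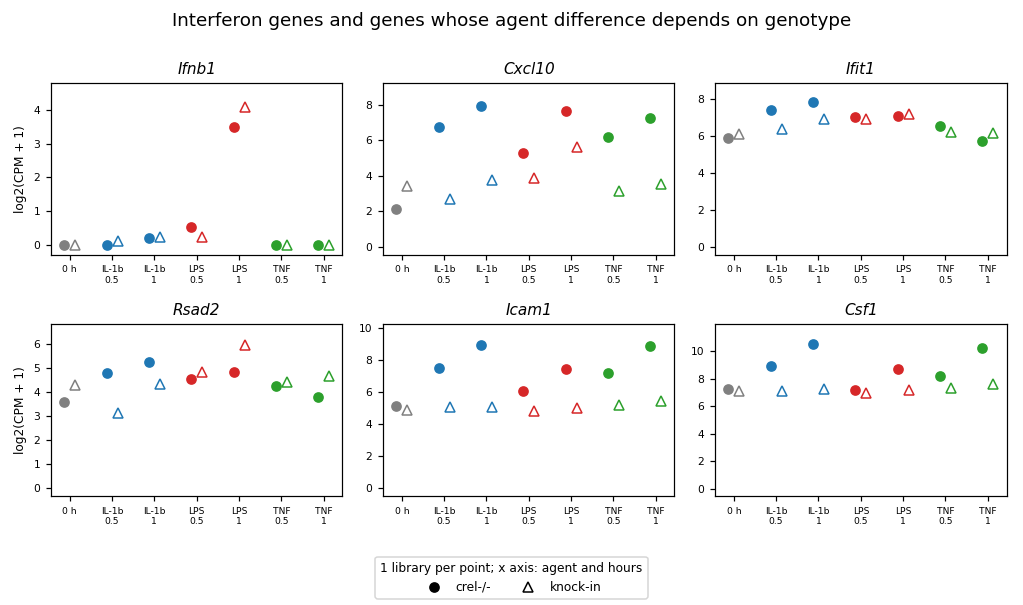
Levels of Ifnb1, Cxcl10, Ifit1 and the 3 genes whose agent difference depended on genotype (Rsad2, Icam1, Csf1), as log2(CPM + 1) on the vertical axis, by agent and hours on the horizontal axis; each point is 1 library, filled circles are crel-/- and open triangles knock-in. Ifnb1 is high in the 2 LPS libraries at 1 h, at 10.3 and 15.8 CPM, while the Csf1 and Icam1 points of knock-in cells stay near their 0 h level.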

How the data were processed

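RNA levels were measured in 8 libraries by polyA RNA-seq with a stranded kit and single-end reads. Per the submitters' processing notes, reads were handled with cutadapt 1.12, STAR, DESeq2 and featureCounts 1.5.1 on mm10. The sources used here do not give the annotation, the strand setting or the treatment of multiply matching reads, so near-identical, overlapping and antisense genes are uncertain. The deposited table holds raw counts for each gene, not normalized by the authors; 45143 of 45706 identifiers (98.77%) matched a symbol. The 13502 genes that reached 1 CPM in 2 or more of the 8 libraries hold 99.87% of counts and were tested with edgeR 4.0.16 (R 4.3.3; TMM scaling, glmQLFit robust, quasi-likelihood F test, Benjamini-Hochberg adjustment over all genes tested, threshold 0.05). Each genotype and time combination was a block with agent as the term (3 residual degrees of freedom); agent by time and agent by genotype terms left 2. The mean response used these libraries and both 0 h libraries (4 residual degrees of freedom, 13642 genes). CPM are counts per 1000000 of the total times the TMM factor, log2 values per library have a prior count of 2, and SE is the fitted difference divided by the square root of F. Intervals and floors (3 counts, 0.247 to 0.324 CPM before TMM scaling) cover counting error only. The common coefficient of variation was 8.521%.

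Members, gene lists and tests were chosen with earlier results of these data known. Named genes are the 12 with the largest difference per direction among those called with the same sign in 4 of 4 pairs, up to 4 called members per list and direction by p, 28 preset genes, and up to 4 per direction with the largest called interaction; Ccl4, Myc, Mdm2, Plk2, Smad6, Csf1r, C1qa, Lyz2 and Ptprc are further list members picked after their values were seen. Lists are described by counts and medians, with no set test. DESeq2 1.42.0 and limma 3.58.1 (voom) were alternatives, as were other scaling, filters, blocks and leaving out each pair. Fits were tested on simulated data, where the share of false calls lay above the nominal level in every fit tested and was highest for the agent by time term. Promoter sequences are from RefSeq (GRCm38.p6).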

Additional observations from a re-analysis of the deposited data

Results flagged for a closer look

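The LPS minus IL-1b difference changed between 0.5 and 1 h, by a test of that change, most in 8 genes, given as log2 change (1 h minus 0.5 h). Towards LPS moved Sele (3.87, adjusted p = 0.0268), Gdf15 (2.57, adjusted p = 0.0107), Slc25a25 (1.95, adjusted p = 0.00808) and Adora2b (1.77, adjusted p = 0.0270). Sele, the adhesion molecule E-selectin, was at 20.2 and 24.2 CPM after 0.5 and 1 h of IL-1b and 0.0906 and 3.12 CPM after LPS in crel-/- cells, and at 0.981 and 1.16 and 0.0965 and 0.428 CPM in knock-in cells. Adora2b, an adenosine receptor, was at 1.27 and 7.499 CPM after 0.5 and 1 h of LPS in crel-/- cells and 3.38 and 8.45 CPM in knock-in cells, with 3.27 to 3.82 CPM under IL-1b. Towards IL-1b moved AI467606 (-3.01, adjusted p = 0.00486), Phf11b (-2.33, adjusted p = 0.0198), Fam78a (-2.30, adjusted p = 0.0141) and H2-K2 (-2.30, adjusted p = 0.0425). AI467606 went to 0.292 and 0.535 CPM at 1 h of LPS, from 2.90 and 3.18 CPM at 0.5 h. H2-K2 belongs to a family of near-identical genes, and its counts are uncertain on that account. Several of these genes had few counts, and each time rests on 2 pairs of libraries.

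The difference also depended on genotype, again by a direct test, in 3 genes, given as log2 change (knock-in minus crel-/-): Csf1 (1.68, adjusted p = 0.00114), Icam1 (1.28, adjusted p = 0.0129) and Rsad2 (2.08, adjusted p = 0.0127). Their levels stand in the report. A check for single libraries far from their group could not be made, since each group is 1 library.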

How the results depend on the processing

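Among the genes named, no called difference changed sign over the 4 pairs in the alternatives run. Differences of 11 genes that had not passed the test did, with adjusted p from 0.471 to 0.996 where the sign differed. On the log2 scale, and with 1 pair left out, they ranged as follows: Cxcl10 -0.42 to 0.74, Egr1 -0.20 to 1.01, H2-K2 -0.58 to 0.64, Ifit1 -0.28 to 0.14, Il1rap -0.045 to 0.091, Isg15 -0.23 to 0.17, Ly96 -0.090 to 0.14, Nfkbia -0.79 to 0.0093, Nfkbiz -0.42 to 0.012, Phf11b -0.84 to 0.13 and Tnfaip3 -0.84 to 0.57. Cxcl10 was also -0.044 with all 20 libraries and -0.23 with limma-voom. Of the genes called over the 4 pairs that are named above, Ccrl2, Clec4e, Dusp2, Gprc5a, Il1b, Jund, Nr4a2, Nr4a3, Osm, Rgs1, Tnfaip6 and Traf1 were called under every alternative that gave them a value. The 76 higher and 78 lower genes became 150 and 201 with no count filter, 50 and 48 with a minimum of 5 CPM, 70 and 35 in a fit of all 20 libraries, and 25 to 68 and 22 to 75 with 1 pair left out; with genotype and time as additive blocks they were 100 and 98, and 143 of the 154 genes were shared. The main calls shared were 59 with all 20 libraries, 90 with DESeq2, 123 with limma-voom, and 41, 55, 69 and 102 without the knock-in 1 h, crel-/- 0.5 h, knock-in 0.5 h and crel-/- 1 h pairs. At 0.5 h, 68 and 73 became 211 and 288 with no filter; with DESeq2 29 were higher, and with all 20 libraries 5 and 2. At 1 h, 503 and 642 became 88 and 116 with DESeq2 and 83 and 74 with all 20 libraries, and 1121 were lower with no filter. The change with time, 111 and 244, became 334 and 550 with no filter, 37 and 32 with DESeq2 and 1 and 5 with all 20 libraries. The genotype difference, 3 and 0, became 8 and 3 with no filter and 5 and 2 with DESeq2. The mean response, 328 induced and 208 repressed, became 184 to 355 and 158 to 183 with either 0 h library left out, and DESeq2 gave 128 repressed. The cause of these shifts was not tested. The test over 4 pairs is itself blocked by genotype and time; a pairing by replicate number could not be made, since the labels give none. The 0.247 to 0.324 CPM floors limit what can be said of Il10, Il1a, Ccl22 and of Ifnb1 at 0.5 h.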

Other observations

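Of 9 tested genes of the mitochondrial genome, 6 were higher under LPS and 0 lower, with a median of 0.19 on the log2 scale against 0.00 over all genes; 3 to 5 were higher with 1 pair left out, 4 with DESeq2, and 0 in the fit of all 20 libraries. Of these, mt-Nd4 and mt-Nd5, subunits of respiratory complex I, differed by 0.42 and 0.41 on the log2 scale, higher in 4 of 4 pairs each (adjusted p = 0.000139 and 0.00129, edgeR). These genes were chosen after their values were seen. The libraries also differed in Gm42418, and the part of library composition in these small differences was not tested.

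At 3 h, outside the first hour, the 76 genes higher under LPS lay at least 1 log2 unit above 0 h in 38 cases with LPS, 6 with IL-1b and 27 with TNF, beside 11.8%, 4.13% and 4.16% of all genes tested. Acod1 then stood at 1734 CPM in crel-/- and 430.4 CPM in knock-in LPS libraries, and at 3.94 and 0.160 CPM in the IL-1b libraries.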
